A study of Mus musculus with 20 samples.

Results

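CA3 pyramidal neurons were picked out of hippocampal single nuclei RNA-sequencing data by a fixed marker rule, and 2072 of 160777 nuclei (1.29%) passed it. A nucleus passed with at least 5 unique molecular identifiers (UMIs, each standing for 1 counted RNA molecule) summed over the 5 genes Nectin3, Trhde, St8sia6, Iyd and Cd109, of which at least 2 were of Nectin3. It also had 0 UMIs of Prox1, Gad1, Gad2, Fibcd1, Gm2115, Mog, Pdgfra, Csf1r and Aqp4, which mark granule cells, interneurons, CA1 neurons and glia, and at most 1 UMI over Map3k15, Calb2 and Drd2, which mark CA2 neurons and mossy cells. The gate used the measured counts, so the levels of these genes describe the choice and are not results. Every mouse contributed nuclei, from 28 in mouse 27 to 196 in mouse 17.

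The study asked how hippocampal neurons respond to anesthesia in early familial Alzheimer's disease model mice and their littermates. All 20 mice were males of 4.5 to 5.5 months on the C57BL/6J background, either wild type (WT) or hemizygous for APP/PS1, in which the Swedish APP mutation and an exon-deleted presenilin are driven by the mouse prion promoter. Awake controls (Wake) comprised 6 WT and 3 APP/PS1 mice. Isoflurane mice (Isofluran in the labels; induction at 5%, then 1.5% for 3 h) comprised 3 WT and 4 APP/PS1 mice. The Ketamine groups, 2 mice of each genotype, were given ketamine at 150 mg/kg together with xylazine at a dose of 12 mg/kg for the same 3 h. An effect of ketamine cannot be told apart from one of xylazine, since they were given together. Each library held the nuclei of 1 whole frozen hippocampus.

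CA3 pyramidal neurons receive the large mossy fibre synapses of dentate granule cells, excite each other through recurrent collaterals, and send the Schaffer collaterals to CA1. They carry kainate receptors, including those with the subunit encoded by Grik4, and their recurrent network generates sharp waves and can generate epileptiform discharges. Transcription in these neurons is coupled to activity through calcium and the ERK kinase cascade, which induces immediate early genes as well as its own inhibitors.

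Libraries held 4743 to 10877 nuclei and 9243992 to 25394891 UMIs over 32285 genes. The CA3 nuclei of a mouse summed to 139228 to 1078414 UMIs, with a median of 3327 to 9245 UMIs per nucleus. Any pair of libraries shared 5 to 35 cell barcodes, and over all 190 pairs only 2 shared barcodes passed the gate in both. Mice 1 to 4 stood apart in mitochondrial UMIs, with 0.195% to 0.571% against 0.00722% to 0.0886% in the other mice. A doublet caller marked 200 of the gated nuclei (9.65%) and 11449 of all nuclei (7.12%). The share marked in each library was set in advance from its number of nuclei, so the 7.12% is not a measured rate.

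Genes outside the gate bore the label out. Kcnq5, a potassium channel of the M-current family, was detected in 98.7% of the gated nuclei, the heparan sulfate sulfotransferase gene Hs3st4 in 97.9%, the kainate receptor gene Grik4 in 97.2%, and Spock1 and Cpne4 in 93.1% each. Rnf182 was found in 76.5% and Slc17a7, which encodes the vesicular glutamate transporter VGLUT1, in 69.0%. Other markers listed as checks were rarer, with Dkk3 at 50.7%, Socs2 at 47.0%, Nrip3 at 39.8%, Cdh24 at 20.7%, Npy2r at 14.1%, Bok at 12.5% and Tyro3 at 2.08%. At the threshold itself, the 285 gated nuclei with a marker sum of 5 had a median over mice of 1096 CPM of Grik4 and 1785 CPM of Hs3st4 (CPM, a gene's UMIs per 1000000 UMIs of all genes), and the 279 nuclei with a sum of 4 that passed every other condition had 894 and 1413 CPM.

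Transcripts listed as markers of other classes were also present, and whether they came from other cells was not tested. Of the gated nuclei, 275 (13.3%) held at least 3 UMIs over the markers of 1 other class, most often subiculum or cortex (75 nuclei), granule cells (70) and oligodendrocytes (60), and these nuclei were unevenly spread. Markers found in over 20% of the gated nuclei were not used in this count, namely Stxbp5l (96.9%), Maml2 (46.3%), Tle4 (40.9%), P2ry12 (37.6%), Mbp (26.7%) and Ajap1 (23.5%). The CA2 list, which holds Stxbp5l, had the highest sum, at 892 to 1403 CPM in wake, 1236 to 1740 in isoflurane and 1157 to 1674 in ketamine mice. The share of gated nuclei with at least 3 UMIs of another class's markers was 6.31% to 19.2% in wake mice, 7.69% to 28.3% in isoflurane mice and 16.5% to 32.1% in ketamine mice. Summed over a list, subiculum and cortex markers came to 124 to 247 CPM in wake, 116 to 273 CPM in isoflurane and 159 to 553 CPM in ketamine mice, whereas oligodendrocyte markers came to 104 to 434, 87.6 to 305 and 55.7 to 223 CPM. CA1 markers came to 9.14 to 59.8, 5.95 to 21.6 and 20.6 to 86.2 CPM (medians 21.9, 13.9 and 44.3), with 2 of their 7 genes at 0 in all mice because the gate requires it, and interneuron markers at 21.6 to 217, 19.3 to 97.0 and 14.4 to 256 CPM. No marker of another class was called in the comparisons of state described below, but some moved. The median log2 fold change of the 5 tested subiculum and cortex markers was 1.51 for ketamine against wake (3 with an unadjusted p under 0.05) and 2.10 for ketamine against isoflurane (4). For the 3 tested CA1 markers it was -1.25 for isoflurane against wake (2) and 2.11 for ketamine against isoflurane (3). Ketamine against wake also gave 2.40 for 2 vascular markers (1) and 1.01 for 3 microglia markers (2), and ketamine against isoflurane 4.26 for the vascular (1) and 1.25 for 3 granule markers (2). The 13 tested CA3 identity genes outside the gate had a median of -0.31 under ketamine (6) and -0.19 under isoflurane (7). Counts of calls between states are also given without the 275 nuclei.

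**Figure D1:**
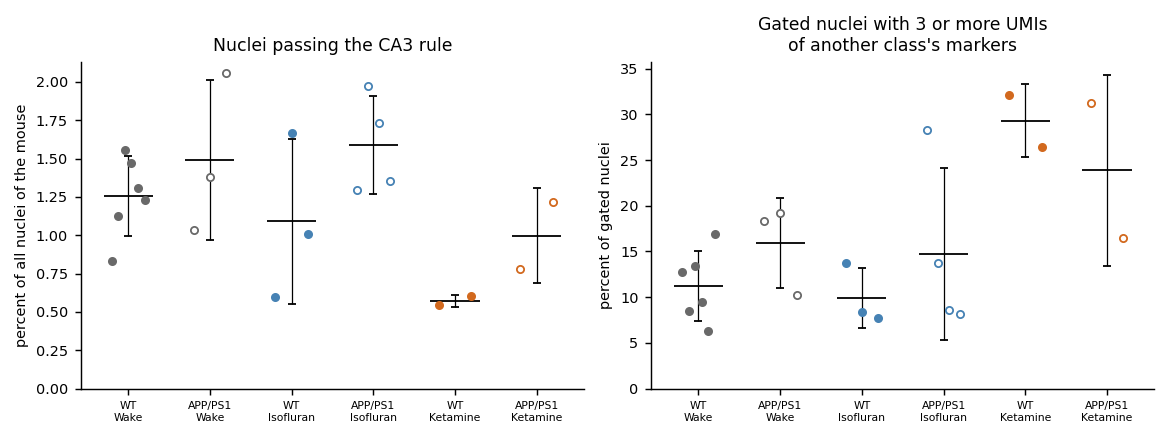
Percent of each mouse's nuclei that passed the CA3 gate (left) and percent of the gated nuclei with at least 3 UMIs of another class's markers (right), by state. Points are mice (filled WT, open APP/PS1), lines are means and bars SD; the ketamine mice lie low on the left (0.546% to 1.22%) and high on the right (16.5% to 32.1%).

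Fewer nuclei of the ketamine mice passed the gate. The share of nuclei was 1.33% ± 0.352 (SD, n = 9) in wake mice, 1.37% ± 0.468 (n = 7) under isoflurane and 0.786% ± 0.304 (n = 4) under ketamine. In wake mice it ran from 0.832% to 2.06% with a median of 1.31%, and the ketamine range of 0.546% to 1.22% overlapped it. The difference from wake was 0.0421 percentage points for isoflurane (two-sided exact permutation test, p = 0.840) and -0.547 for ketamine (p = 0.0168, where the smallest p this design allows is 0.0028). CA1 comparison nuclei were also a smaller share under ketamine, at 1.04% to 1.63% of nuclei (median 1.38%) against 1.61% to 3.50% in wake mice (median 2.39%), a difference that was not tested. The ketamine difference in CA3 nuclei lost its call without mouse 27 or without mouse 28 (exact p = 0.0545 for each). Nuclei with at least 1500 UMIs were also thinned to 1500 UMIs, and the share was taken over these nuclei alone. The difference was then -0.139 (exact permutation test, p = 0.204), at which depth 0 to 20 nuclei per mouse still passed. From 883 to 5411 nuclei per mouse were left out, so this share has another base than the one above. Since nuclei of whole hippocampi were counted, a change in dissection or in RNA per nucleus cannot be told apart from a change in CA3 neurons. Of the wake mice only mouse 29 falls in the run of mouse numbers that holds the ketamine mice, and its share was 1.23%. A run of libraries and ketamine therefore largely cannot be told apart in this share.

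Against nuclei of 2 other hippocampal classes drawn from the same mice by rules of the same kind, 3335 of CA1 and 1619 granule nuclei, the gated nuclei had a set of genes of their own. Because the classes were chosen on counts of the same nuclei, these levels are given without a test. Trps1, a transcriptional repressor, had a median over mice of 1532 CPM in CA3 nuclei, 80.5 in CA1 nuclei and 51.5 in granule nuclei. The non-coding RNA Gm32647 had 857, 52.9 and 5.16 CPM. The extracellular proteoglycan gene Spock1 had 879, 95.0 and 21.7 CPM, and Slit2, an axon guidance ligand, had 463, 79.2 and 35.9 CPM. In all 20 mice CA3 nuclei were the highest of the 3 classes for each of these genes.

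Hs3st4 stood at 2130 CPM in CA3, 384 in CA1 and 213 in granule nuclei, Grik4 at 1155, 122 and 301, and Kcnq5 at 4068, 1156 and 75.1. The listed CA3 markers Dkk3 (151 CPM against 161 in CA1), Slc17a7 (250, 211 and 166 CPM) and Tyro3 (2.49 CPM against 17.5 in CA1) did not stand apart. Npy2r (26.4 CPM against 6.77 in CA1 and 18.4 in granule nuclei) and Bok (23.6, 6.03 and 7.37 CPM) had the higher median in CA3, with ranges over mice that overlapped those of both other classes. Among the gated nuclei of a mouse, the variance over mean was highest for Malat1 (median over 20 mice 30.6, 19.5 to 123) and Gm32647 (14.1, 2.40 to 42.0). These were found in a median of 100% and 73.2% of the nuclei. Dpp10 followed at 10.3 (median over 12 mice), found in 9.10% of the nuclei.

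**Figure D2:**
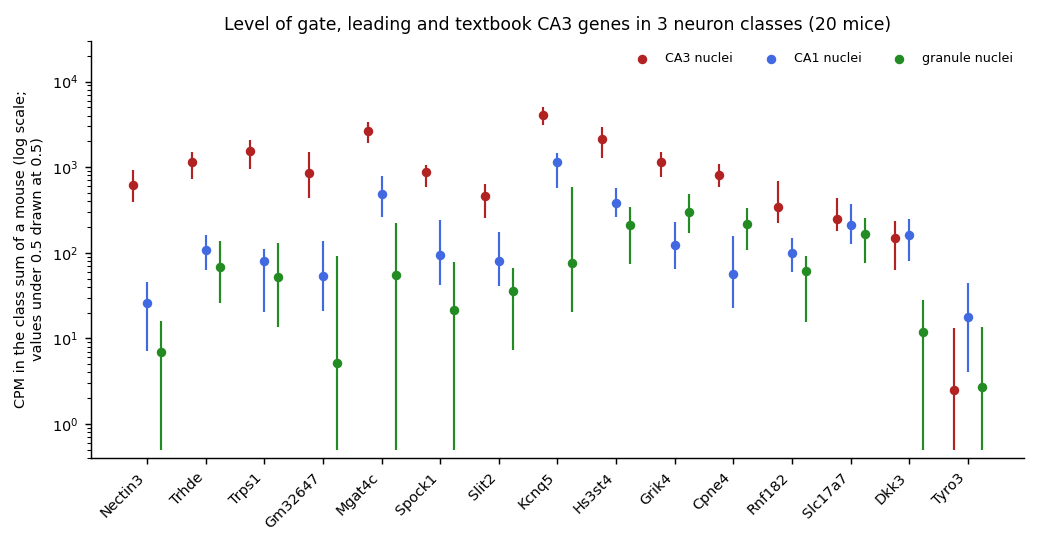
Level of each gene in CA3, CA1 and granule nuclei, in CPM on a log axis. Points are medians and lines the lowest to highest of 20 mice, with values under 0.5 CPM drawn at 0.5; genes from Nectin3 to Rnf182 lie highest in CA3 nuclei, with Grik4 at 1155 CPM against 122 in CA1, while Slc17a7, Dkk3 and Tyro3 do not.

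Few genes of CA3 nuclei were called between isoflurane and wake mice. UMIs were summed per mouse and tested by edgeR's quasi-likelihood test with Benjamini-Hochberg adjustment over 9367 genes, averaging the genotypes, and a gene was called at an adjusted p under 0.05. By this test 49 genes were called (0.523% of those tested), 30 higher (0.320%) and 19 lower (0.203%). At an unadjusted p under 0.05 there were 1089 genes (11.6%), so genes that were not called are not shown to be unchanged. A330008L17Rik, Gm9866 and 2610037D02Rik, 3 non-coding RNAs, and the potassium channel gene Kcna4 were among the higher, and Mast3, Spred2, Neto2 and Srebf2 among the lower.

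A330008L17Rik is a long intergenic non-coding RNA gene at chr8:99416642-99733438 (plus strand, GRCm38), of unknown function. Its level was 92.1 to 173 CPM in the 9 wake mice (median 115), and 284, 289 and 306 CPM in the WT and 207, 288, 252 and 265 CPM in the APP/PS1 isoflurane mice. Every isoflurane mouse was above every wake mouse, whereas ketamine mice, at 103, 65.0, 102 and 128 CPM, were not. The log2 fold change was 1.15 (SE 0.14, adjusted p = 0.000138), and the call held whichever mouse was left out. Gm9866, another intergenic non-coding RNA (chr12:27050950-27160633, minus strand), had 18.9 to 38.5 CPM in wake mice (median 28.9) and 44.0 to 85.2 under isoflurane (median 63.5), also without overlap, with a log2 fold change of 1.23 (SE 0.16, adjusted p = 0.000148). 2610037D02Rik (chr15:96134819-96284495, minus strand) rose from 121 to 174 CPM (median 134) to 177 to 228 CPM (median 209), again without overlap, a log2 fold change of 0.60 (SE 0.11, adjusted p = 0.0147).

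Kcna4 encodes Kv1.4, a subunit of rapidly inactivating A-type potassium channels found in axons. It had 6.89 to 38.5 CPM in wake mice (median 20.9), 57.6, 34.1 and 44.8 CPM in WT and 46.0, 50.3, 56.4 and 52.2 CPM in APP/PS1 isoflurane mice, so that the groups overlapped at one end. The log2 fold change was 1.15 (SE 0.24, adjusted p = 0.0273). It was the only called gene of 21 tested voltage-gated and calcium-gated potassium channel genes, beside 0.523% of all genes, and their median log2 fold change was -0.02 beside -0.00 over all genes. Sned1, which encodes an extracellular matrix protein, was also higher under isoflurane (log2 fold change 1.64, adjusted p = 0.0148).

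Mast3, a microtubule-associated serine/threonine kinase gene at chr8:70778117-70805054 (minus strand), fell the most clearly. Its level was 150 to 262 CPM in wake mice (median 179) and 82.4 to 109 CPM under isoflurane (median 87.9), without overlap. The log2 fold change was -1.06 (SE 0.13, adjusted p = 0.000148). Spred2, an inhibitor of the ERK cascade at chr11:19924375-20024026 (plus strand), had 187 to 316 CPM in wake mice (median 223), 102, 120 and 119 CPM in WT and 71.5, 174, 110 and 181 CPM in APP/PS1 isoflurane mice. All isoflurane mice were below all wake mice, and the log2 fold change was -0.87 (SE 0.16, adjusted p = 0.0148).

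Neto2, the auxiliary subunit that slows kainate receptor gating, is encoded at chr8:85636588-85700924 (minus strand). It had 75.6 to 138 CPM in wake mice (median 104) and 33.9 to 67.7 CPM under isoflurane (median 53.6), with no overlap and a log2 fold change of -0.96 (SE 0.16, adjusted p = 0.0088). The other 6 tested genes of kainate receptor subunits and partners, Grik4 among them, gave no call, and the median of the list was -0.29. Ago2, which binds small RNAs in silencing complexes, fell with a log2 fold change of -0.90 (SE 0.17, adjusted p = 0.0148), and its 44.9 to 82.7 CPM in wake mice did not overlap the 27.1 to 44.7 CPM under isoflurane.

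**Figure D3:**
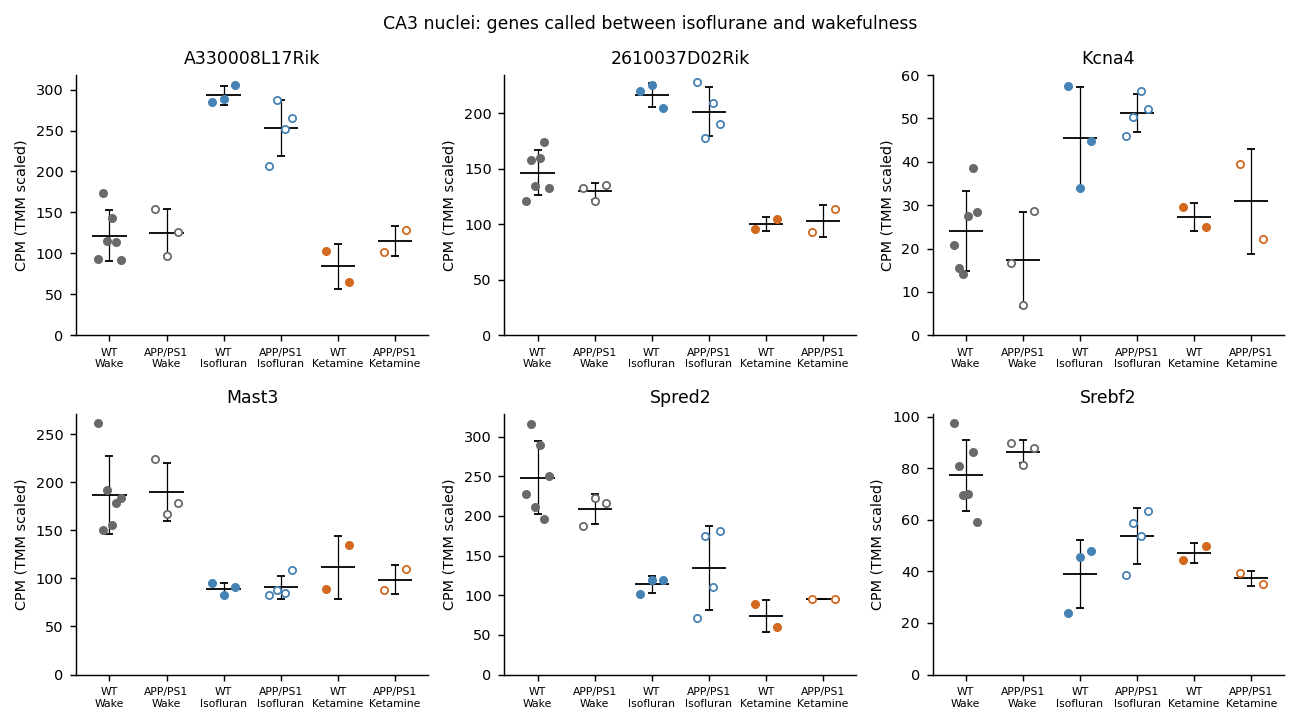
Levels of 6 genes called between isoflurane and wake mice, in CPM of the CA3 nuclei, by genotype and state. Points are mice, lines means and bars SD; A330008L17Rik, 2610037D02Rik and Kcna4 are higher in both isoflurane groups and Mast3, Spred2 and Srebf2 lower, and Mast3 lies between 82.4 and 109 CPM under isoflurane against 150 CPM or more awake.

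These calls varied with the libraries used. Leaving out 1 mouse at a time gave 13 to 70 calls, the fewest without WT isoflurane mouse 18 (13) or mouse 3 (16), followed by APP/PS1 wake mouse 2 (21) and mouse 10 (25), APP/PS1 isoflurane mouse 4 (28) and WT wake mouse 13 (32). Without mice 1 to 4, those with more mitochondrial UMIs, 6 genes were called, namely A330008L17Rik, Gm40375, Gm9866, Mast3, Spred2 and Stum. Without nuclei carrying other classes' markers, an alternative added after seeing the data, 29 were called, all among the 49. The stricter gate called 12, of which 10 were among the 49. The study processed tissue in batches, which the labels do not give; with the run of mouse numbers as a term in their place 133 were called, 48 of the 49 among them.

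Few genes of cholesterol metabolism passed the test, and those that did were lower under anesthesia. Neurons make part of their own cholesterol, under the sterol-sensing transcription factor SREBP2 (Srebf2). The list of 24 such genes was drawn up after called members had been seen, so its counts are a description. Of 12 tested members, Srebf2 was called lower under isoflurane and Srebf2 and Msmo1 under ketamine, and none was called higher, beside 0.523% and 1.07% of all genes called. The median log2 fold change was -0.74 under isoflurane and -1.19 under ketamine, beside -0.00 and -0.05 over all genes, and 8 and 9 of the 12 had an unadjusted p under 0.05, as had 11.6% and 16.8% of all genes. From UMIs summed over the mice of a state, 11 of the 12 had a lower share under isoflurane and 12 under ketamine, with median log2 ratios of -0.70 and -1.27.

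Srebf2 (chr15:82147181-82205379, plus strand) had 59.0 to 97.4 CPM in wake mice (median 81.2), 23.7 to 63.5 CPM under isoflurane (median 47.8) and 44.3, 50.0, 39.4 and 35.3 CPM under ketamine. The isoflurane range reached into the wake range and the ketamine range did not. The log2 fold change was -0.79 (SE 0.15, adjusted p = 0.0148) for isoflurane and -0.95 (SE 0.22, adjusted p = 0.0337) for ketamine. Without nuclei carrying other classes' markers the adjusted p for isoflurane was 0.0878.

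Msmo1, which encodes a sterol methyl oxidase (chr8:64718139-64733792, minus strand), had 19.2 to 59.1 CPM awake (median 41.2), 11.3 to 30.5 under isoflurane (median 19.6) and 0, 25.0, 2.32 and 5.57 CPM under ketamine, from 220, 96 and 9 UMIs. For ketamine its log2 fold change was -2.34 (SE 0.47, adjusted p = 0.0181), and for isoflurane -1.02 (adjusted p = 0.0825).

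The 162 bases that lie before the start of Srebf2 in both RefSeq and GENCODE are shown, from RefSeq (GRCm38.p6), because Srebf2 was called lower in both states. Capitals mark CACCCCA, the core of a sterol regulatory element, and CCAAT, the NF-Y motif, each on either strand. There was 1 match of each. In the same stretch of 32851 RefSeq promoters, CACCCCA was present in 4.42% and CCAAT in 21.8%. A match is a description of the letters and no evidence of binding.
Srebf2, chr15:82147019-82147180, plus strand: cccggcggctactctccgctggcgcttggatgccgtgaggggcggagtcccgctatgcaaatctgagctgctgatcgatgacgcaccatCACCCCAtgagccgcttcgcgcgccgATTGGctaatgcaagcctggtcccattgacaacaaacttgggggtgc

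Under ketamine, Spred2, Etv1 and Etv5, genes of the ERK cascade's output, and a MAP kinase kinase kinase gene were lower in CA3 nuclei. The cell cycle regulator Rb1, the ion channel family member Ano4 and the phosphodiesterase Pde4d were higher. In all 100 genes were called (1.07% of those tested), 40 higher (0.427%) and 60 lower (0.641%). Scaling by library totals instead of TMM gave 142, with 39 higher and 103 lower. The count rested on single libraries. Without WT ketamine mouse 27 (28 nuclei) 0 genes were called and 1236 of 10471 tested had an unadjusted p under 0.05. It was 6 without APP/PS1 ketamine mouse 25, 39 without APP/PS1 wake mouse 2, 51 without mouse 26, 52 without mouse 28 and 64 without WT wake mouse 13 or mouse 14. Without nuclei carrying other classes' markers 22 were called, of which 19 were among the 100, and the stricter gate called 1. All ketamine mice carry numbers from 25 to 28, and only wake mouse 29 has a number in the same run, so a run of libraries and ketamine largely cannot be told apart. With the run as a term 0 genes were called and 562 had an unadjusted p under 0.05.

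Spred2 was lower under ketamine as well, with 88.7, 60.0, 95.0 and 94.8 CPM against at least 187 CPM in every wake mouse. The log2 fold change was -1.45 (SE 0.23, adjusted p = 0.00575), and the call held in 19 of 20 refits without 1 mouse. Etv1 and Etv5 encode ETS transcription factors that the ERK cascade induces. Etv1 (chr12:38779380-38870484, plus strand) had 18.9 to 44.1 CPM in wake mice (median 32.5), 21.8 to 53.9 under isoflurane, and 0, 15.0, 2.32 and 1.86 CPM under ketamine, from 180, 171 and 5 UMIs. All ketamine mice were below all mice of both other states, with a log2 fold change against wake of -2.86 (SE 0.50, adjusted p = 0.00998). Etv5 (chr16:22381309-22439719, minus strand) had 7.09 to 39.9 CPM awake (median 25.9) and 0, 0, 2.32 and 3.72 CPM under ketamine, from 140 and 3 UMIs (adjusted p = 0.0400, called in 12 of 20 refits). These were the 3 calls among 7 tested members of the ERK output list, all lower, beside 0.641% of all genes called lower. That list was written with earlier results of these data known, so its counts are a description. The list had a median log2 fold change of -1.31 under ketamine and -0.49 under isoflurane, where Spred2 alone was called, and -1.24 and -0.57 from UMIs summed over mice.

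Map3k13, which encodes the kinase LZK of the JNK pathway (chr16:21794346-21933439, plus strand), had 37.8 to 78.0 CPM awake (median 60.5), 48.5 to 67.2 under isoflurane, and 7.39, 15.0, 20.9 and 22.3 CPM under ketamine. The ketamine mice lay below all others, and the log2 fold change was -1.94 (SE 0.28, adjusted p = 0.00288). The wake mouse nearest to them was mouse 29, of the same run of numbers. It was also the nearest for Neto2, Dkk3, Srebf2 and Ano4, but not for Spred2, Etv1, Etv5, Msmo1, Lingo1, Cacng2, Rb1, Pde4d or Rasgrp1. Lingo1, a neuronal membrane protein that limits myelination and axon growth, fell from 172 to 223 CPM (median 206) to 103, 115, 139 and 124 CPM, a log2 fold change of -0.70 (SE 0.13, adjusted p = 0.0166).

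Neto2 had 14.8, 40.0, 53.3 and 72.5 CPM under ketamine against at least 75.6 CPM in wake mice, with a log2 fold change of -1.28 (SE 0.25, adjusted p = 0.0166). It was the 1 called gene of 7 tested kainate receptor and Neto genes, whose median log2 fold change was -0.05, as over all genes (-0.05). Cacng2, which encodes the AMPA receptor auxiliary subunit stargazin (chr15:77991748-78120028, minus strand), had 105 to 189 CPM awake and 81.3, 99.9, 34.8 and 74.3 CPM under ketamine, a log2 fold change of -0.95 (SE 0.23, adjusted p = 0.0447) that was called in 12 of 20 refits. It was the 1 called gene of 10 tested AMPA receptor and auxiliary subunit genes (median log2 fold change -0.01), beside 1.07% of all genes. Dkk3, which encodes a secreted glycoprotein of the Dickkopf family, had 130 to 239 CPM awake (median 186), 67.7 to 147 under isoflurane and 66.5, 95.0, 81.1 and 130 CPM under ketamine, with a log2 fold change of -0.97 (SE 0.22, adjusted p = 0.0312) for ketamine and -0.60 (adjusted p = 0.0825) for isoflurane.

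Rb1, the retinoblastoma gene (chr14:73183673-73325822, minus strand), had 99.3 to 138 CPM awake (median 116), 103 to 137 under isoflurane and 222, 155, 285 and 180 CPM under ketamine. No ketamine mouse overlapped another state, and the log2 fold change was 0.85 (SE 0.15, adjusted p = 0.0134). Ano4, of the anoctamin family (chr10:88948994-89344762, minus strand), had 47.3 to 94.5 CPM awake (median 64.9), 50.8 to 73.9 under isoflurane and 133, 155, 158 and 106 CPM under ketamine, a log2 fold change of 1.08 (SE 0.19, adjusted p = 0.00998). Pde4d, a cyclic AMP phosphodiesterase gene (chr13:108449948-109953461, plus strand), was abundant, at 2619 to 3447 CPM awake (median 2856) and 3909, 3393, 5363 and 3902 CPM under ketamine, which overlapped by 1 mouse. Its log2 fold change was 0.52 (SE 0.12, adjusted p = 0.0328). Rasgrp1, a calcium-responsive activator of Ras, rose from 132 to 242 CPM to 325, 225, 394 and 260 CPM. Its log2 fold change was 0.74 (SE 0.18, adjusted p = 0.0415), with a call in 11 of 20 refits.

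**Figure D4:**
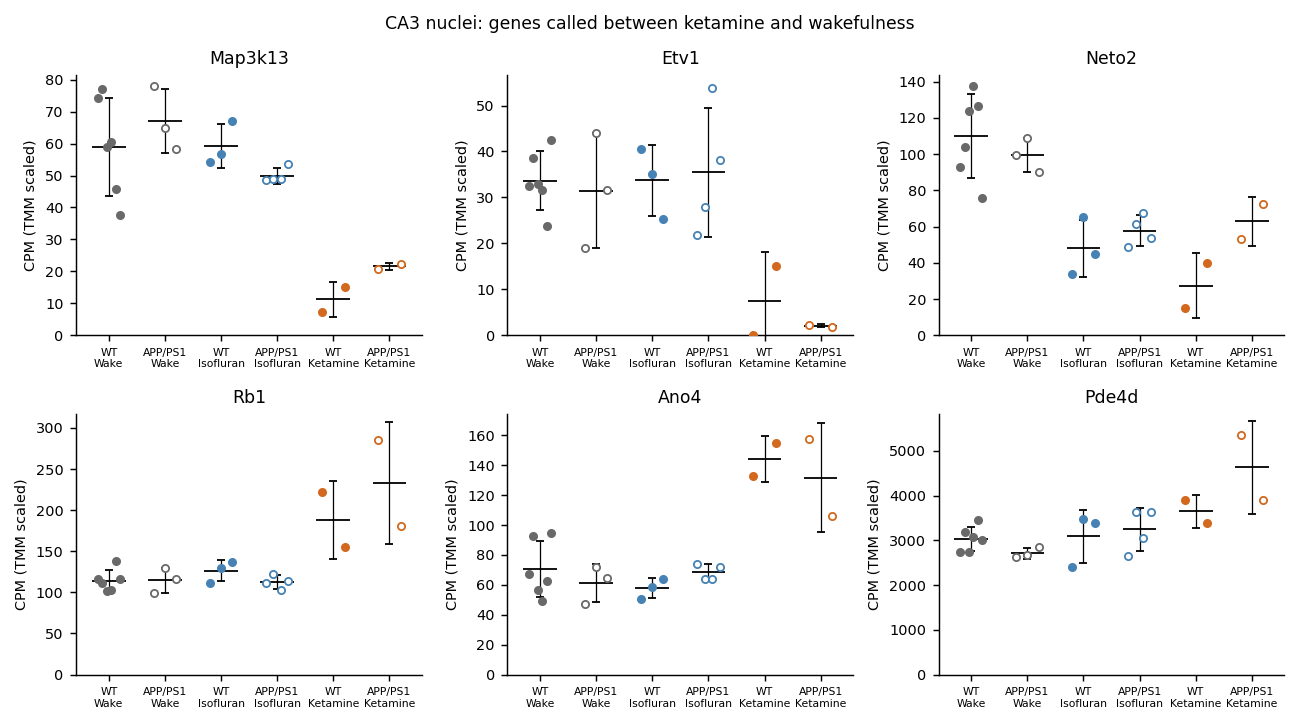
Levels of 6 genes called between ketamine and wake mice, in CPM of the CA3 nuclei, by genotype and state. Points are mice, lines means and bars SD; Map3k13, Etv1 and Neto2 are lower and Rb1, Ano4 and Pde4d higher in the ketamine mice, with Map3k13 at 7.39 to 22.3 CPM against 37.8 CPM or more in wake mice.

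Both states were compared with the same wake mice, so genes called in both are not independent. There were 12 of them. Itga11, Klhl10, Slc16a4, 2810049E08Rik and C130071C03Rik were among those higher, and Mast3, Neto2, Raver2, Spred2, Srebf2 and Stum among those lower, in each. Mast3, for example, had 88.7, 135, 88.1 and 110 CPM under ketamine, with a log2 fold change of -0.82 (SE 0.18, adjusted p = 0.0269), beside the -1.06 of isoflurane.

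The direct contrast of ketamine with isoflurane called 45 genes (0.480%), 20 higher (0.214%) and 25 lower (0.267%) under ketamine, with 36 and 19 by DESeq2. It called 5 without mouse 25, 7 without mouse 27 and 8 without nuclei carrying other classes' markers. The stricter gate, again without mouse 27, called 2, and the run as a term 0. Upp2, a uridine phosphorylase gene, separated all 3 states. It had 319 to 393 CPM awake (median 340), 403 to 600.2 CPM under isoflurane (median 491) and 118, 245, 174 and 281 CPM under ketamine, so that no state overlapped another. Ketamine differed from isoflurane by a log2 fold change of -1.21 (SE 0.16, adjusted p = 0.000562), and from wake by -0.73 (SE 0.16, adjusted p = 0.028), whereas isoflurane against wake gave 0.48 (adjusted p = 0.0695). A330008L17Rik (-1.48, SE 0.20, adjusted p = 0.000562), 2610037D02Rik (-1.03, SE 0.15, adjusted p = 0.00148), Map3k13 (-1.76, SE 0.28, adjusted p = 0.00435) and Etv1 (-2.92, SE 0.50, adjusted p = 0.00701) were also lower under ketamine than under isoflurane. Ano4 (1.12, SE 0.19, adjusted p = 0.00701) and Rb1 (0.79, SE 0.16, adjusted p = 0.0222) were higher. Wake mouse 29, of the same run of numbers, lay outside the ketamine range for Upp2, 2610037D02Rik, Map3k13, Etv1, Ano4 and Rb1. It lay inside it for 5031425E22Rik (85.0 CPM, ketamine 66.5 to 89.2, other wake mice 127 to 165). The same held for Ccdc138 (9.45 CPM, ketamine 0 to 11.1, other wake mice 15.4 to 32.5). Egfem1 was at 257 CPM in mouse 29 and 223 to 281 under ketamine, with at most 231 in other wake mice. The cause was not tested.

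No gene of CA3 nuclei was called between APP/PS1 and WT mice, either by edgeR (317 genes, 3.38%, at an unadjusted p under 0.05) or by DESeq2. Prnp can carry reads of a transgene built on the prion promoter, and serves as a check of the labels. It had 14.8 to 79.8 CPM in WT (median 42.3) and 40.8 to 154 CPM in APP/PS1 mice (median 78.8), which overlapped, with a log2 fold change of 1.27 (SE 0.31) that was not called. App itself had 400 to 549 CPM in WT (median 488) and 481 to 579 CPM in APP/PS1 mice (median 544). These nuclei therefore do not separate all mice by genotype. The study's own text gives other sizes than the labels for the WT and APP/PS1 wake and isoflurane groups, so genotypes are as labelled, and the comparisons by genotype rest on those labels.

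The response to isoflurane was not called different between genotypes for any gene, by edgeR (234 genes, 2.50%, at an unadjusted p under 0.05) or by DESeq2. Within WT mice A330008L17Rik (log2 fold change 1.28, SE 0.18, adjusted p = 0.00296) and Mast3 (-1.08, SE 0.19, adjusted p = 0.0412) were called (0.0214%), and within APP/PS1 mice Gm9866 alone (1.54, SE 0.23, adjusted p = 0.00708; 0.0107%). The difference between the genotypes for A330008L17Rik was -0.26 (SE 0.27) and that for Mast3 was 0.02 (SE 0.27), both with an adjusted p of 1.00. In APP/PS1 mice the corresponding values were 1.03 (SE 0.20) for A330008L17Rik and -1.05 (SE 0.19) for Mast3.

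Most gene groups of neuronal function gave no call for either drug against wake. Among 4 NMDA receptor, 10 GABA-A receptor, 5 metabotropic glutamate receptor, 17 calcium channel, 16 calcium and calmodulin-dependent kinase, 11 circadian clock, 8 glucocorticoid target, 11 heat shock, 22 synaptic adhesion and 75 oxidative phosphorylation genes tested, none passed, beside 0.523% and 1.07% of all genes, a share at which lists of this size would hold few or no calls. Neither did any of 9 genes of amyloid processing. Immediate early transcription factors were mostly too sparse, with 7 of 20 tested, none called, and a median log2 fold change of -0.26 under isoflurane and -0.79 under ketamine. Nr4a1 had 16.5 to 47.3 CPM awake (median 28.9), 6.77 to 52.6 under isoflurane and 9.99 to 44.3 under ketamine. Homer1, whose short activity-induced form uncouples postsynaptic scaffolds, had 113 to 292 CPM awake (median 226), 87.2 to 187 under isoflurane (median 134; log2 fold change -0.55, adjusted p = 0.182) and 90.0 to 137 under ketamine (-0.94, adjusted p = 0.0572). Of 77 ribosomal protein genes tested, Rpl10 alone was called, higher under ketamine, a share near the background. It had 59.1, 25.0, 20.9 and 72.5 CPM under ketamine, and wake mouse 29, of the same run of numbers, had 28.3 CPM against at most 13.0 CPM in the other wake mice.

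Whether CA3 nuclei responded otherwise than their neighbours was tested as a difference between classes within the same mice. Under isoflurane 44 genes of 10164 (0.433%) responded differently in CA3 and CA1 nuclei, 37 of them (0.364%) with the higher and 7 (0.0689%) with the lower change in CA3. Hecw2, a ubiquitin ligase gene, was at 269 ± 73.4 CPM in CA3 nuclei of wake mice (SD, n = 9) and 326 ± 74.5 CPM under isoflurane (n = 7), whereas CA1 nuclei had 283 ± 67.7 and 205 ± 45.5 CPM. The difference of the log2 changes was 0.74 (SE 0.11, adjusted p = 6.3e-05). Nr4a3, an activity-induced nuclear receptor, had 66.8 ± 12.4 and 56.6 ± 15.6 CPM in CA3 but 55.6 ± 28.3 and 18.0 ± 5.01 CPM in CA1 (difference 1.38, SE 0.26, adjusted p = 0.003). The axon guidance receptor gene Unc5c (0.48, adjusted p = 0.0019), Lgi1, a secreted organiser of synapses in which mutations cause epilepsy (0.70, adjusted p = 0.0028), and Camk4, a calcium-dependent kinase of the nucleus (0.59, adjusted p = 0.015), had the same sign. Without mouse 4 there were 17, without mouse 11 there were 23, without mouse 16 there were 25, and without mouse 29 or mouse 15 there were 26 and 27.

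The leading isoflurane genes of CA3 were not called different from CA1. The differences were 0.32 for A330008L17Rik (adjusted p = 0.53), 0.28 for Mast3 (0.66), -0.14 for Spred2 (0.86) and 0.06 for Gm9866 (0.97), and a fit of CA1 nuclei alone, in which 1.54% of genes were called, called all 4 of them. In CA1 nuclei Homer1 fell by 1.00 (adjusted p = 0.01), but the difference between the classes was 0.44 (adjusted p = 0.40).

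Against granule nuclei 80 genes of 8226 (0.973%) differed in their isoflurane response, 53 (0.644%) with the higher and 27 (0.328%) with the lower change in CA3. Kctd16, an auxiliary subunit of GABA-B receptors, was steady in CA3 nuclei (891 ± 152 and 896 ± 97.4 CPM) and went from 1465 ± 246 to 850.2 ± 156 CPM in granule nuclei, a difference of 0.82 (SE 0.10, adjusted p = 3.12e-06). Epha5, an ephrin receptor gene, had 1808 ± 313 and 1654 ± 444 CPM in CA3 and 573 ± 80.8 and 284 ± 60.5 CPM in granule nuclei (0.89, SE 0.12, adjusted p = 1.01e-05). Srebf2 differed the other way, with 84.2 ± 12.1 and 49.9 ± 15.4 CPM in CA3 and 39.1 ± 21.6 and 57.1 ± 19.4 CPM in granule nuclei (-1.14, SE 0.26, adjusted p = 0.013), and Stum likewise (-1.09, adjusted p = 0.00519). Bdnf, the neurotrophin gene (0.99, SE 0.23, adjusted p = 0.016), and Kcna4 (0.94, SE 0.25, adjusted p = 0.0405) had the higher change in CA3. The count was 51 without mouse 4 and 28 without mice 1 to 4.

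For ketamine, 37 genes (0.364%) differed between CA3 and CA1, 23 (0.226%) with the higher change in CA3 and 14 (0.138%) with the lower (7 and 10 by DESeq2), and 1 of them was Nectin3, on which nuclei were chosen. Map2, the dendritic microtubule-associated protein gene, had 414 ± 73.1 CPM awake and 427 ± 136 CPM under ketamine (n = 4; 588, 490, 322 and 307 CPM in mice 25 to 28) in CA3, and 524 ± 102 and 292 ± 48.2 CPM in CA1, a difference of 0.97 (SE 0.14, adjusted p = 5e-05). Tead1, a Hippo pathway transcription factor, went the other way, with 274 ± 36.1 and 149 ± 53.9 CPM in CA3 and 87.4 ± 9.62 and 105 ± 30.2 CPM in CA1 (-1.22, SE 0.21, adjusted p = 0.0013). Neurod6, a transcription factor of pyramidal neurons (1.18, adjusted p = 0.018), and Nrp1, a semaphorin receptor gene (0.68, adjusted p = 0.013), had the higher change in CA3. The count was 12 without mouse 26, 18 without mouse 27 and 20 without mouse 13, and 62 without mouse 28.

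Against granule nuclei 21 genes (0.255%) differed under ketamine, 18 (0.219%) with the higher and 3 (0.0365%) with the lower change in CA3. Gabrb2, a GABA-A receptor subunit gene, had 169 ± 42.8 and 208 ± 13.4 CPM in CA3 and 414 ± 81.8 and 236 ± 14.7 CPM in granule nuclei (1.13, SE 0.18, adjusted p = 0.000316). Kctd16 again had the higher change in CA3 (0.95, SE 0.13, adjusted p = 2.38e-05). The count fell to 6 without mouse 26, 9 without mouse 25, 10 without mouse 1, 11 without mouse 2, 12 without mouse 27 and 13 without mouse 13.

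**Figure D5:**
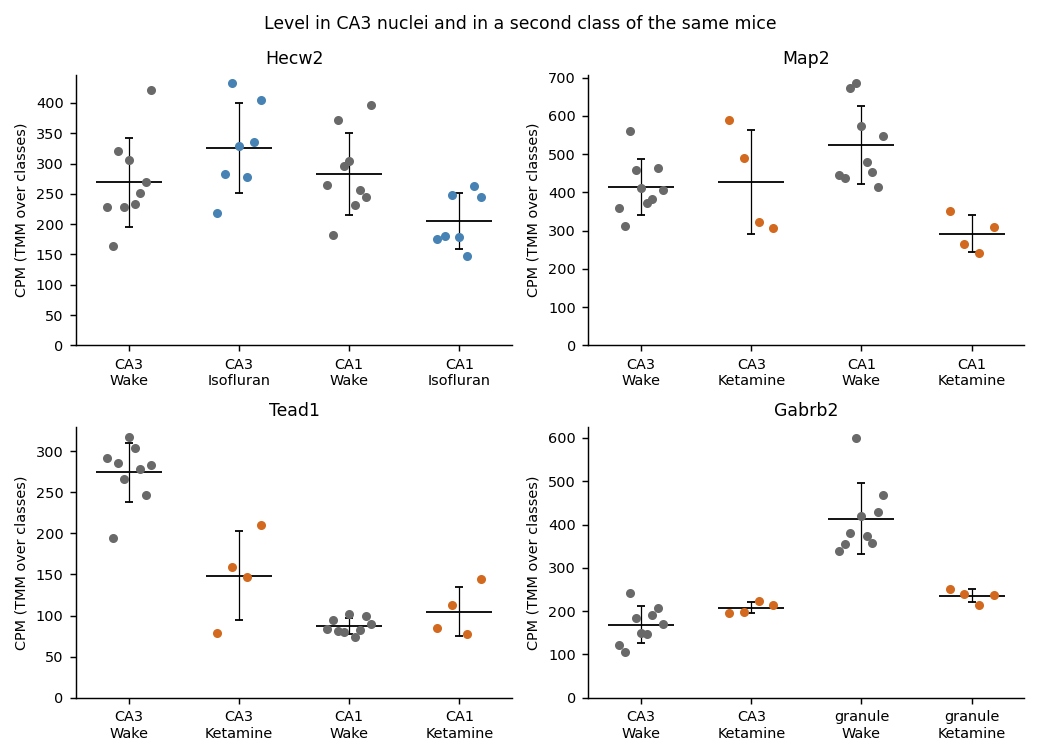
Levels, in CPM, of Hecw2 in CA3 and CA1 nuclei of wake and isoflurane mice, of Map2 and Tead1 in CA3 and CA1 nuclei of wake and ketamine mice, and of Gabrb2 in CA3 and granule nuclei of wake and ketamine mice. Points are mice, lines means and bars SD; Map2 lies at 588 and 490 CPM in the CA3 nuclei of APP/PS1 mice under ketamine and at 322 and 307 CPM in those of WT mice, around a mean of 427 against 414 awake, while its mean in CA1 goes from 524 to 292 CPM and that of Tead1 goes from 274 to 149 CPM in CA3.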

How the data were processed

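Single nuclei of 20 hippocampi were sequenced with a droplet kit, 1 library per mouse. The authors' deposited files hold whole-number UMI counts, not normalized, made per the labels with Cell Ranger 5.0.0 on mm10. The study's methods add removal of ambient RNA (CellBender), a minimum of 200 genes and doublet removal; whether the deposited counts had passed the first of these steps is not given in the sources used here. The fewest genes in a nucleus were 229. Droplet counts can carry free RNA from other cells, and introns are counted in nuclei, so long genes gather more UMIs.

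Groups were taken from the labels. The marker gate was applied to raw counts, the CA3 counts of each mouse were summed, and the sums of all 6 groups were fitted in edgeR 4.0.16 (R 4.3.3) with TMM scaling, filterByExpr and the quasi-likelihood F test, with contrasts averaged over the genotypes. P-values were adjusted by Benjamini-Hochberg and called at 0.05. TMM moved no mouse by more than 0.16 on the log2 scale against library totals. CPM of single genes in CA3 nuclei are TMM-scaled, and sums over marker lists and levels at the gate's threshold are per total UMIs. CPM set beside CA1 or granule nuclei are scaled over the CA3, CA1 and granule sums together, so the values for a gene differ slightly. The tests of differences in response were scaled over the classes compared. A mouse needed at least 10 nuclei, which left mouse 27 (6 nuclei) out of the fits by the stricter gate. CA1 nuclei had at least 2 UMIs over Fibcd1 and Gm2115, granule nuclei at least 2 of Prox1 and 3 over Prox1, C1ql2 and Dsp, and both at most 4 over the CA3 markers. Differences in response were fitted with mouse, class, and class by state. Shares were compared by a two-sided exact permutation test (scipy 1.17.1). The share p-values and the model's p-values treat mice as replicates, 1 library each.

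The members, gene lists and tests were chosen with earlier results of these data known. Genes were named by a rule: the first 12 calls by adjusted p per direction of a contrast (values only where fewer than 5 were called), called members of the lists, the 5 leading response differences in each direction, the gate markers, and leading genes by level and spread; the sterol list and its members were added after values were seen, as were the response differences given for Bdnf, Kcna4, Srebf2, Lgi1, Camk4, Nrp1 and Neurod6. Coordinates are those of GENCODE vM21 (GRCm38). On simulated counts of the CA3 sums with known changes, the isoflurane contrast recovered 70% of 2-fold and 89% of 3-fold changes over 8995 genes, and the ketamine contrast 31% and 59% over 8975. The simulation used 1 mean profile with the trended spread and no differences between runs. Its rates may therefore not hold for the measured counts. Alternatives were DESeq2 1.42.0, library totals, no gene filter, a stricter gate (sum of 8, Nectin3 of 3; 877 nuclei), marked doublets left out, mice 1 to 4 left out, the run of mouse numbers as a term, each mouse left out, and, added after seeing the data, nuclei with other classes' markers left out. Results for some genes are not reported here, and the cholesterol list leaves those genes out.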

Additional observations from a re-analysis of the deposited data

Results flagged for a closer look

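Of 78 tests for a mouse far from the others of its group, of which chance flags about 1 in 20, 6 were positive. Mitochondrial genes took 0.195% of the UMIs in WT wake mouse 1 and 0.266% in APP/PS1 isoflurane mouse 4, each far above the rest of its group. Mast3 was at 262 CPM in WT wake mouse 1. Map3k13 was at 53.6 CPM in APP/PS1 isoflurane mouse 20. Upp2 was at 600.2 CPM in APP/PS1 isoflurane mouse 11. Hecw2 was at 404 CPM in WT wake mouse 29.

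By the test of the difference itself (edgeR's quasi-likelihood test, mouse as a block), 44 genes responded differently to isoflurane and 37 to ketamine in CA3 than in CA1 nuclei, and 80 and 21 in CA3 than in granule nuclei. Leaving out 1 mouse moved the last count, 21, to between 6 and 38.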

How the results depend on the processing

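No pairing by label was possible because every mouse carries its own number in the labels, so that no number joins mice of different groups. The study's methods describe processing batches that each held samples of all wake and isoflurane groups, and name none for ketamine. The labels do not say which mice shared a batch, and a block by the run of mouse numbers was fitted as the nearest to it. Counts of called genes are given in the order isoflurane against wake (49), ketamine against wake (100) and ketamine against isoflurane (45). DESeq2 gave 76, 121 and 55, and no gene filter 171, 327 and 240. The stricter gate, in which mouse 27 was missing, gave 12, 1 and 2. Doublets left out gave 38, 94 and 23, and nuclei with other classes' markers left out 29, 22 and 8. The run of numbers as a term gave 133, 0 and 0, and mice 1 to 4 left out 6, 86 and 39. Without a gene filter 13 genes were called between genotypes and 24 for the interaction. Leaving out 1 mouse gave 13 to 70, 0 to 142 and 5 to 65, and 0 for genotype and interaction (from 0 to 0). The 49 isoflurane calls kept their sign in every refit made. For the differences between classes, the order is CA1 isoflurane (44), CA1 ketamine (37), granule isoflurane (80) and granule ketamine (21). DESeq2 gave 13, 17, 49 and 11, no filter 84, 100, 100 and 37, mice 1 to 4 left out 15, 42, 28 and 7, and leaving out 1 mouse 17 to 44, 12 to 62, 51 to 95 and 6 to 38. Members of the fixed lists called were 3, 8 and 5 in the 3 contrasts of state and 0 for genotype. Over all genes 0.523%, 1.07%, 0.480% and 0% were called. The lists were chosen with earlier results known, so these counts are a description and are not compared with those shares. No filter gave 13, 26, 18 and 3 members, the run term 9, 0 and 0, and mice 1 to 4 left out gave 1 for isoflurane and 2 for ketamine against isoflurane. Library totals gave 13 under ketamine, the stricter gate 1 in each ketamine contrast, nuclei with other classes' markers left out 3 and 1, doublets left out 1 for ketamine against isoflurane, and leaving out 1 mouse 2 to 4, 0 to 11, 0 to 6 and 0 to 0. Among nuclei with at least 1500 UMIs, thinned to 1500, the difference in share of CA3 nuclei was -0.0496 for isoflurane, reversed, and -0.139 for ketamine. Leaving out 1 mouse gave -0.0573 to 0.172 and -0.691 to -0.457, and the isoflurane sign turned without mouse 1 (-0.0206), mouse 11 (-0.0573), mouse 15 (-0.0178) or mouse 16 (-0.00634). In ketamine against isoflurane, Egfem1 (-0.14) and Nrg1 (-0.16) turned with the run term and Rpl10 (-0.36) with the stricter gate. The cause of these moves was not tested. Depth limits what can be shown for sparse genes, and mouse 27 gave only 28 CA3 nuclei.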
